A study of Mus musculus with 4 samples.

Results

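The genes described here are 10 immune receptor genes and signalling partners of splenic dendritic cells (DC): the C-type lectins Clec4n, Clec4d, Clec7a and Clec4a2, the Fc gamma receptors Fcgr1, Fcgr3 and Fcgr2b, the adaptor chains Fcer1g and Tyrobp, and the kinase Syk. They were chosen by gene symbol as members of the receptor system that signals through immunoreceptor tyrosine-based activation motifs (ITAM), and every probe set annotated to one of them was taken, which gave 18 of the 22626 probe sets tested. Of these 18, 17 carried 1 gene symbol, and 1 was shared by Clec4b1 and Clec4a2. The members were chosen with earlier results of these data known, so their counts are not those of an independent list. Expression was measured on 4 Affymetrix mouse arrays in total RNA of DC from pooled spleens, enriched by density and then by magnetic sorting until over 90% of the cells were DC. The groups were TCDD, from female C57BL/6 mice given 10 µg/kg TCDD in corn oil, and DMSO, from mice given the solvent in corn oil. Both were injected intraperitoneally at an age of 8 to 12 weeks, 24 h before the DC were isolated, with 3 mice per group and 2 arrays per group. The RNA was amplified before hybridisation. The labels number the arrays of a group as biological replicates without saying whether each had its own pool of mice, so p-values reflect only how far arrays spread, which may be partly technical.

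C-type lectins bind sugars on fungi, bacteria and dying cells, and Fc gamma receptors bind antibody that has coated an antigen. Many of these receptors have no signalling motif of their own and pair with a small adaptor, the Fc receptor gamma chain encoded by Fcer1g or DAP12 encoded by Tyrobp, whose ITAM is phosphorylated and then recruits the kinase Syk. Receptors with an inhibitory motif (ITIM), such as those of Fcgr2b and Clec4a2, recruit phosphatases that oppose this signal. In DC the system links uptake of microbes and immune complexes to cytokine production and antigen presentation. TCDD is a dioxin that activates the aryl hydrocarbon receptor (AhR), a transcription factor.

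Of the 10 genes, 6 lay lower in TCDD without overlap, meaning that both TCDD arrays were below both DMSO arrays: Clec4n, Clec7a, Fcgr3, Fcgr2b, Fcer1g and Tyrobp. For the same brightest probe set per gene, 19.4% of all 12393 genes were lower without overlap 2.42% were so by at least 2-fold, and 20.0% were higher without overlap. None of the members was higher without overlap. In Clec4d, Clec4a2, Fcgr1 and Syk the groups overlapped. None of the 18 probe sets passed the test: limma with Benjamini-Hochberg adjustment over all probe sets called 0, or 0.0% of the series, and the smallest adjusted p was 0.349 for the members and for the series alike. At an unadjusted p under 0.05 there were 9 of the 18 probe sets, all of them lower in TCDD, while 6.7% of all probe sets were lower and 6.37% higher by that rule. The 9 included every Fcgr2b and Clec4n probe set. On the brightest probe sets 5 of the 10 genes were lower by that rule and 0 higher, against 911 and 878 of 12393 genes. These shares and counts over the series are not matched to the levels of the members.

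**Figure D1:**
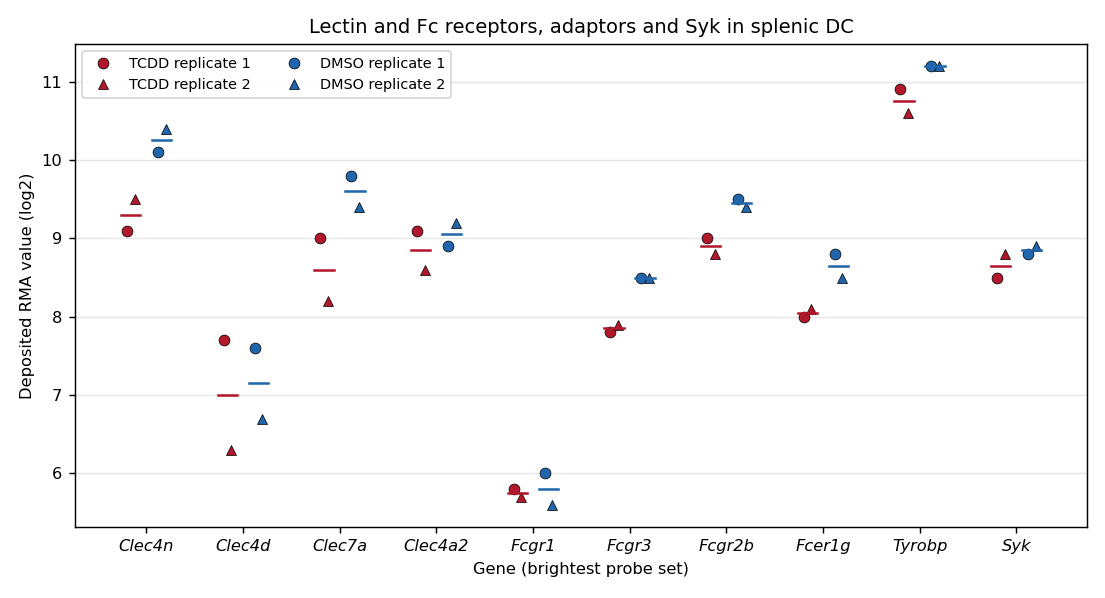
Deposited RMA values (log2, vertical axis) of the brightest probe set of each of the 10 genes, with TCDD arrays in red left of DMSO arrays in blue, 1 point per array and a bar at each mean. In 6 genes both red points lie below both blue points; Clec4d has a high and a low array in each group.

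The promoters of 4 of the genes that were lower without overlap are shown because the results turn on these genes and each has an entry in the table of RefSeq promoters for GRCm38.p6; Clec4n and Tyrobp are named only. Each sequence is the 250 bases before the annotated start, 5′ to 3′ on the gene's strand. Capitals mark the AhR core motif GCGTG and the PU.1 core motif GAGGAA, searched on both strands as GCGTG or CACGC and as GAGGAA or TTCCTC; the searched words do not overlap in these sequences. PU.1 is a transcription factor of myeloid cells and DC.
Clec7a (chr6:129472780-129473029, minus strand): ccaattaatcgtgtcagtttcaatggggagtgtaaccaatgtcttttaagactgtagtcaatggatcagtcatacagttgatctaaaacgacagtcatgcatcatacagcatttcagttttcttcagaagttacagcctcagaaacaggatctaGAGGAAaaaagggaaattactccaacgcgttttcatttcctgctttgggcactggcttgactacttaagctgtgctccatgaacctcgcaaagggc
Fcgr3 (chr1:171059404-171059653, minus strand): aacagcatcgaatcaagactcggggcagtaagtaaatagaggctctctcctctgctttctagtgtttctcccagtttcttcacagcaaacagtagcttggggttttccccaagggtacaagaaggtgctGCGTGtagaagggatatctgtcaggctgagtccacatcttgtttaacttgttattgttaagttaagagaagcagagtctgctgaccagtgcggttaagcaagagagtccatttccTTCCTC
Fcgr2b (chr1:170976072-170976321, minus strand): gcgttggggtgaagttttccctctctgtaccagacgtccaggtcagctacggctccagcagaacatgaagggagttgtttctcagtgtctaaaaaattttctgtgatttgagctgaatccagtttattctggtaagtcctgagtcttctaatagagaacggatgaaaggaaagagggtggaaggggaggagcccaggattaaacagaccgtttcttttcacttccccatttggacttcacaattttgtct
Fcer1g (chr1:171234350-171234599, minus strand): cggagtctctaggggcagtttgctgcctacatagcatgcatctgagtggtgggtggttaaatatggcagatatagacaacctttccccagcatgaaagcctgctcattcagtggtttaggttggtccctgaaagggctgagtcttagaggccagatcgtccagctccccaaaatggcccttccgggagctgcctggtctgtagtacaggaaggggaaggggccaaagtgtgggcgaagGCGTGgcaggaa

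The AhR core began 121 bases before the start of Fcgr3 and 12 bases before that of Fcer1g, and it was not found in the Clec7a and Fcgr2b windows. Over all 8 members with a promoter entry, 3 held the AhR core in at least 1 listed promoter, the third being Syk, against 28.2% of the 32851 promoters in the table. The PU.1 core was held by 5 members, Clec4d, Clec7a, Fcgr1, Fcgr3 and Syk, against 23.3% of all promoters. It lay 96 bases before the start of Clec7a and 6 bases before that of Fcgr3 at the starts shown. The shares of 28.2% and 23.3% count single promoters, while a member counted if any of its promoters matched. The 8 members had 11 promoters, so their counts and these shares are not on the same scale. Members with a motif were found both among the genes without overlap and among those with overlap. A match is a description of these letters and says nothing on binding.

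Clec4n encodes Dectin-2, a lectin for fungal mannans that pairs with the Fc receptor gamma chain. Its brighter probe set 1419627_s_at lay at 9.1 and 9.5 in the TCDD arrays, against 10.1 and 10.4 in the DMSO arrays. Both TCDD arrays were lower, and the gap between the groups was larger than the gap within either. The difference, TCDD minus DMSO on the log2 scale, was -0.95 (SE 0.21, n = 2 arrays per group), or 1.93-fold lower, with limma adjusted p = 0.379. The other probe set, 1425951_a_at, lay at 5.2 and 5.7 in TCDD and at 6.9 in each DMSO array. Its difference was -1.45 (SE 0.21, limma adjusted p = 0.349), so both probe sets pointed the same way. It was the largest difference in size among the 18 probe sets.

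Clec7a encodes Dectin-1, the receptor for fungal beta-glucan, which carries a single-tyrosine variant of the ITAM in its own tail. It lay at 9.0 and 8.2 in TCDD, against 9.8 and 9.4 in DMSO. The groups did not overlap, but TCDD replicate 2 was much lower than TCDD replicate 1. The difference was -1.0 (SE 0.37, n = 2 per group), or 2.0-fold lower, with an unadjusted p of 0.072 and a limma adjusted p = 0.429. Against the DMSO mean, TCDD replicate 1 stood at -0.60 and TCDD replicate 2 at -1.40.

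Clec4d encodes MCL, a lectin for mycobacterial glycolipid that also uses the gamma chain. Its values were 7.7 and 6.3 in TCDD and 7.6 and 6.7 in DMSO. Replicate 1 was the high array in both groups, and the ranges overlapped, so the difference of -0.15 (SE 0.68, limma adjusted p = 0.937) was smaller than the spread within the groups. Clec4e, which encodes the partner receptor Mincle and was on the list of other pathway genes, lay at 6.8 and 5.2 in TCDD and at 6.8 and 6.0 in DMSO. It too was high in replicate 1 of both groups. Neutrophils also express these receptors, and the neutrophil gene S100a8 lay at 10.3 and 5.6 in TCDD and at 6.4 and 5.9 in DMSO; its part in the spread of Clec4d was not tested.

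Clec4a2 encodes DCIR1, a lectin with an ITIM. The probe set 1422013_at lay at 9.1 and 8.6 in TCDD and at 8.9 and 9.2 in DMSO, with overlap. The difference was -0.20 (SE 0.24, limma adjusted p = 0.745). The probe set shared with Clec4b1 lay at 9.0 in each TCDD array and at 8.9 and 9.2 in DMSO, a difference of -0.05. The third, 1425406_at, had a mean level under 5.525, the 40th percentile of all probe sets and the level under which a probe set is called dim here; it differed by -0.20. After quantile normalization the differences of the 2 bright probe sets were above 0, at 0.15 for 1422013_at and 0.31 for the shared one, so no direction is given for Clec4a2.

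Among the Fc gamma receptors, Fcgr3 encodes CD16, a low-affinity activating receptor that needs the gamma chain. It lay at 7.8 and 7.9 in TCDD, against 8.5 in each DMSO array. The arrays of each group were nearly equal. The difference was -0.65 (SE 0.07), or 1.57-fold lower, with an unadjusted p of 0.00304 and a limma adjusted p = 0.349.

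Fcgr2b encodes CD32B, the inhibitory Fc gamma receptor of DC, B cells and macrophages. Its brightest probe set, 1435476_a_at, lay at 9.0 and 8.8 in TCDD and at 9.5 and 9.4 in DMSO, a difference of -0.55 (SE 0.11, limma adjusted p = 0.349) or 1.46-fold. The other 3 probe sets were lower without overlap as well. The probe set 1435477_s_at lay at 8.2 and 8.0 in TCDD and at 9.0 and 8.7 in DMSO, a difference of -0.75 (SE 0.16). The probe set 1455332_x_at lay at 7.0 and 6.9 in TCDD and at 7.7 in each DMSO array, a difference of -0.75 (SE 0.07). The 4 probe sets thus shared a direction, but these 3 were designed on the same transcript record and are not independent.

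The fourth Fcgr2b probe set, 1451941_a_at, came from another record and lay at 5.6 and 5.8 in TCDD, against 7.1 and 7.0 in DMSO. Its difference was -1.35 (SE 0.11, unadjusted p of 0.00112, limma adjusted p = 0.349), the smallest unadjusted p among the 18 probe sets. Its TCDD values lay close to the dim level of 5.525. Fcgr2b and Fcgr3 are close relatives in sequence, and probe sets whose names carry _s or _x may share probes with other genes, so signal of the pair cannot be fully assigned to one or the other. Within each array Fcgr3 minus Fcgr2b on the brightest probe sets was -1.2 and -0.9 in TCDD and -1.0 and -0.9 in DMSO. A gap between probe sets says nothing of relative amounts, so only its difference between TCDD and DMSO is read, and the gaps of the groups overlapped.

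Fcgr1 encodes CD64, the high-affinity Fc gamma receptor, and was close to the dim level. It lay at 5.8 and 5.7 in TCDD and at 6.0 and 5.6 in DMSO, a difference of -0.05 (SE 0.18, limma adjusted p = 0.906). The TCDD values lay inside the DMSO range. A change of a gene near the dim level need not show on an array.

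The adaptor gene Fcer1g lay at 8.0 and 8.1 in TCDD, against 8.8 and 8.5 in DMSO. Both TCDD arrays were lower, by a difference of -0.60 (SE 0.14) or 1.52-fold, with limma adjusted p = 0.379. Within each array Clec4n minus Fcer1g was 1.1 and 1.4 in TCDD and 1.3 and 1.9 in DMSO, which overlapped. Tyrobp lay at 10.9 and 10.6 in TCDD and at 11.2 in each DMSO array. The difference was -0.45 (SE 0.14) or 1.37-fold, with limma adjusted p = 0.379, and TCDD replicate 2 was the lower array.

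Syk, the kinase on which both adaptors converge, was at 8.5 and 8.8 in TCDD and at 8.8 and 8.9 in DMSO on its brightest probe set. One TCDD array equalled a DMSO array, and the difference was -0.20 (SE 0.14, limma adjusted p = 0.556). Its other probe sets differed by -0.05 and, on a dim one, by 0.05. After quantile normalization the 2 probe sets above the dim level stood at 0.15 and 0.13, so no direction is given for Syk.

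**Figure D2:**
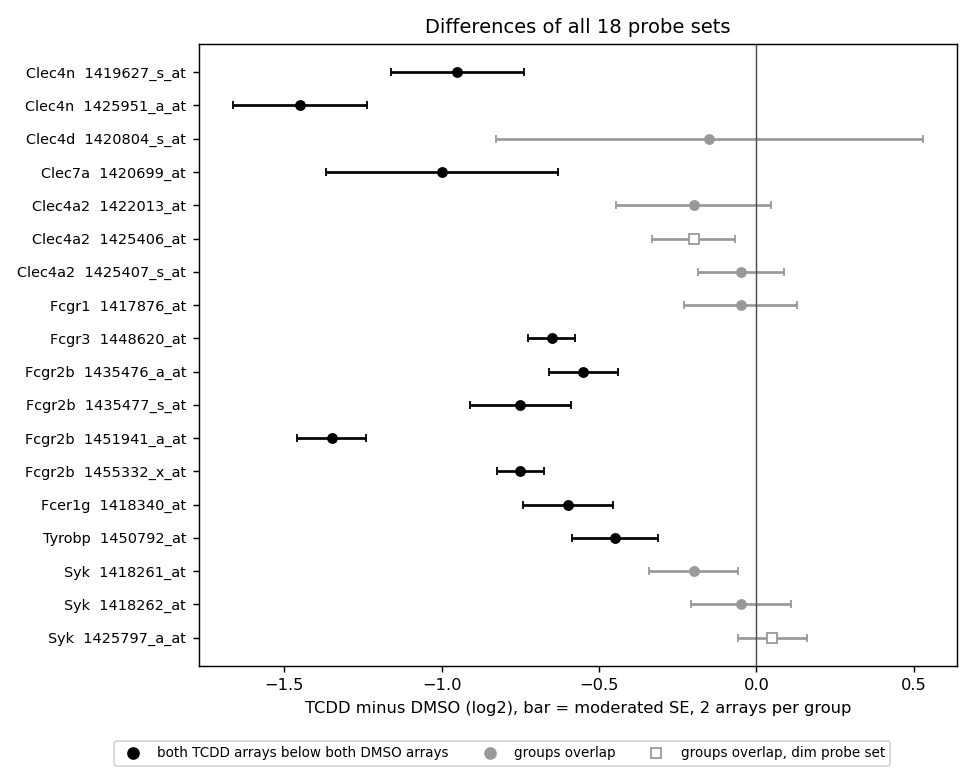
Difference TCDD minus DMSO (log2, horizontal axis) of all 18 probe sets with the moderated SE from limma, 2 arrays per group; black marks no overlap between the groups, grey marks overlap and open squares mark dim probe sets. The 10 black points lie between -1.45 and -0.45, and all 4 Fcgr2b and both Clec4n probe sets are among them.

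Counted over probe sets, 10 of 18 were lower without overlap and 0 higher, against 18.4% lower and 19.0% higher over all probe sets, and 3 of these were at least 2-fold lower, against 2.35% (0.398% were at least 2-fold higher). The 3 were a Clec4n, the Clec7a and an Fcgr2b probe set. Clec7a stood at exactly -1.0 in values rounded to 1 decimal, and at -0.69 after cyclic loess. The Clec4n and Fcgr2b probe sets counted were not the brightest of their genes. The brightest ones differed by -0.95 and -0.55. The share of 2.35% is not matched to level. The median difference over the 10 genes was -0.50, while over all 12393 genes it was 0.00. For the members it was -0.19 after quantile normalization and -0.20 after cyclic loess. The median of the members against the DMSO mean was -0.40 in TCDD replicate 1, where the median of all genes was 0.05. In TCDD replicate 2 it was -0.60, and that of all genes -0.10.

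Bright genes as a whole lay lower in the TCDD arrays, and 8 of the 10 genes are bright. At mean levels from 8 to 11 on the log2 scale 39.2% of 2006 genes were lower and 3.59% higher without overlap, and their median difference was -0.35. Of the 8 members in that range 6 were lower without overlap, with a median of -0.58. Clec7a and Clec4n stood furthest below genes of like level: 8.08% and 9.16% of the 557 genes at levels from 9 to 10 were lower still. For Fcgr3 that share was 20.4%, for Fcer1g 23.8%, for Fcgr2b 31.1% and for Tyrobp 39.8%, each among the genes of its own level range.

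Cyclic loess, which removes a shift that depends on the level, left 5 of the 8 lower without overlap, against 19.5% of genes in the range, and Fcer1g then overlapped. Quantile normalization gave 5 as well, against 15.6%, again without Fcer1g. Over all genes the shares lower and higher were 15% and 23.9% after quantile normalization, 25.2% and 14.2% after median centring and 21.2% and 24.2% after cyclic loess. After cyclic loess the difference was -0.64 for Clec4n, -0.69 for Clec7a and -0.39 for Fcgr3. It was -0.24 for the brightest Fcgr2b probe set and -1.36 for 1451941_a_at. For Fcer1g it was -0.33 and for Tyrobp -0.16. The lower-level Clec4n probe set stood at -1.48. The bright probe sets thus lay nearer to 0 after the scaling, while the lower-level Clec4n and Fcgr2b probe sets kept nearly the same differences.

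**Figure D3:**
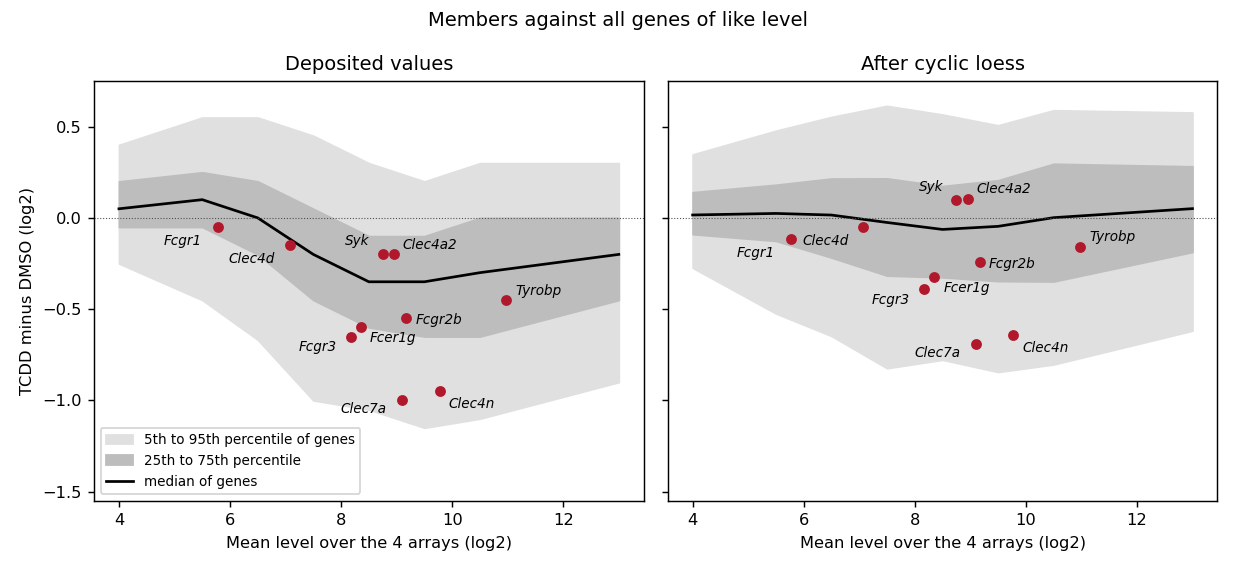
Difference TCDD minus DMSO (log2, vertical axis) against the mean level over the 4 arrays (log2, horizontal axis), for the deposited values on the left and after cyclic loess on the right; the line is the median of all genes, the bands hold the ranges between their quartiles and between their outer percentiles, and red points are the 10 members. Clec7a, Clec4n and Fcgr3 lie under the quartile band in both panels, Fcer1g lies about at its lower edge, and Tyrobp lies within it.

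In the preparation the DC genes Itgax, Flt3 and Zbtb46 lay above the dim level in every array. Of 8 measured markers of type 1 conventional DC 7 were above the dim level, among them Irf8, Naaa, Cd24a and Batf3, and Xcr1 was dim. Macrophages and monocytes express many of the members, and 0 of their 14 measured markers passed the test. Of the 14, 5 were lower and 0 higher in TCDD without overlap and 9 overlapped, against 19.4% lower over all genes and 39.2% at levels from 8 to 11. Their differences had a median of -0.70 (-0.47 after cyclic loess). C1qb stood at 0.40 on its brightest probe set, at 9.9 and 8.0 in TCDD and at 8.6 and 8.5 in DMSO. Only TCDD replicate 1 was above the DMSO arrays, and the lowest difference among the C1qb probe sets was -0.65. The summed log2 level of the list was 112.8 and 114.1 in TCDD and 122.3 and 119.6 in DMSO, and 0 of the 14 markers were dim. For the members the same sum was 84.9 and 82.5 in TCDD and 89.2 and 87.8 in DMSO. The type 2 conventional DC list had a median of -0.50, with 3 of 7 lower, and a sum of 53.7 and 55.3 in TCDD against 57.8 and 59.3 in DMSO. The general DC list had a median of -0.50 as well, with 4 of 10 lower, and the type 1 conventional DC list one of -0.58, with 4 of 8 lower. The part of these lists in the members' values was not tested, and in bulk RNA fewer cells of a type and less RNA per cell cannot be told apart.

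The neutrophil list stood apart in TCDD replicate 1, whose summed log2 level over 9 markers was 68.8, while TCDD replicate 2 had 56.3, and the DMSO arrays had 58.1 and 55.5. None of the 9 was dim. The Gapdh control probe sets also set this array apart: the 3′ signal stood 3.6 above the middle signal (log2) there and 2.0 above it in TCDD replicate 2, while DMSO had 1.5 and 2.1. Of the markers, S100a8, S100a9 and Ngp were far higher in that array. Mmp9, Elane, Ltf, Cxcr2, Camp and Mpo each differed by no more than 0.5 between the TCDD arrays. Of the 9, 2 were higher and 1 lower without overlap, against 20.0% and 19.4% of all genes. The higher ones were Camp, at 6.9 and 6.5 in TCDD and at 5.6 and 5.1 in DMSO, and Mpo. Mpo lay at 6.8 and 6.3 in TCDD and at 6.2 in each DMSO array. Mmp9 was lower, at 7.1 and 6.6 in TCDD and at 7.2 and 7.5 in DMSO. Without TCDD replicate 1 the median difference of the members was -0.60. In TCDD replicate 2 alone the median of all genes against the DMSO mean was -0.50 at levels from 8 to 9 and -0.55 at levels from 9 to 11. The part of the neutrophil genes or the 3′ signal in the members' values was not tested. An array left alone in its group overlaps less easily, so counts of overlap are not compared with it left out.

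The other genes of the pathway were counted in 3 lists, in which 20 of 59 genes in all were lower and 4 higher without overlap; after quantile normalization 12 were lower and 7 higher. At levels from 8 to 11, 39.2% of all genes were lower. The mean levels of the 3 lists ran from 6.7 to 8.2 over the arrays, so this share is not matched to their level. Of 24 measured genes of other C-type lectins and ITAM- or ITIM-coupled receptors 0 passed the test, 8 were lower and 2 higher without overlap, against 19.4% and 20.0% of all genes. The median difference was -0.20, before and after cyclic loess. Sirpa, an ITIM receptor for CD47 that also marks type 2 conventional DC, lay at 8.1 and 8.4 in TCDD and at 9.2 and 9.4 in DMSO, a difference of -1.05 (SE 0.16). Its other probe sets differed by -0.15 and 0.15. The neonatal Fc receptor gene Fcgrt differed by -0.85 (SE 0.39), the mannose receptor gene Mrc1 by -0.80 (SE 0.45) and the ITIM receptor gene Cd300a by -0.80 (SE 0.14). On the higher side stood Clec5a at 0.25, which was dim, and Fcer2a, the low-affinity receptor for IgE, at 0.20. Fcgr4, an activating Fc gamma receptor looked up after its values were seen, lay at 8.2 and 7.7 in TCDD and at 8.4 and 8.3 in DMSO, a difference of -0.40.

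Of 22 measured genes of signal transduction below the receptors 0 passed, 7 were lower and 2 higher without overlap, against 19.4% and 20.0% of all genes, with a median of -0.33 (-0.15 after cyclic loess). Bcl10, the middle protein of the CARD9, BCL10 and MALT1 complex, lay at 6.0 and 8.0 in TCDD and at 8.6 in each DMSO array. The low value was mainly that of TCDD replicate 1, and the difference of -1.60 had an SE of 0.81; its other probe sets differed by -0.80 and, on a dim one, by -0.10. The kinase gene Tec differed by -0.70 (SE 0.22), and Vav1, Prkcd and Pik3cd stood at -0.60 each, with 0.00 on both other probe sets of Pik3cd, which were dim. Plcg2, the phospholipase that acts after Syk, lay at 10.4 and 9.4 in TCDD and at 9.6 and 10.1 in DMSO, with overlap. Src at 0.30 and Pik3ap1 at 0.40 were the genes higher without overlap.

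Of 13 measured genes on the list of inhibitors of ITAM signalling 0 passed, and 5 were lower and 0 higher without overlap. Of all genes 19.4% were lower and 20.0% higher, and the list had a median of -0.30 (-0.067 after cyclic loess). Sla, an adaptor that dampens antigen receptor signals, lay at 8.4 and 10.0 in TCDD and at 11.1 and 11.4 in DMSO, a difference of -2.05 (SE 0.66); its other, dim probe set differed by -0.25. Pag1, a membrane anchor of the kinase Csk, differed by -1.05 (SE 0.38) and by 0.00 on its other probe set. Inpp5d encodes SHIP-1, the phosphatase recruited by Fcgr2b. It differed by -0.50 (SE 0.13) on the brightest probe set and by 0.35 (SE 0.14) on the other, so its direction depends on the probe set. Inpp5b, another phosphatase gene on the list, differed by -0.75 (SE 0.11). Ptpn11 differed by -0.50 (SE 0.14), with -0.10 and 0.30 on its other, dim probe sets. Ptpn6, which encodes SHP-1, lay at 10.3 and 10.1 in TCDD and at 10.3 in each DMSO array, while its other probe set lay at 7.1 in TCDD replicate 1 and at 9.3 to 9.5 in the rest.

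**Figure D4:**
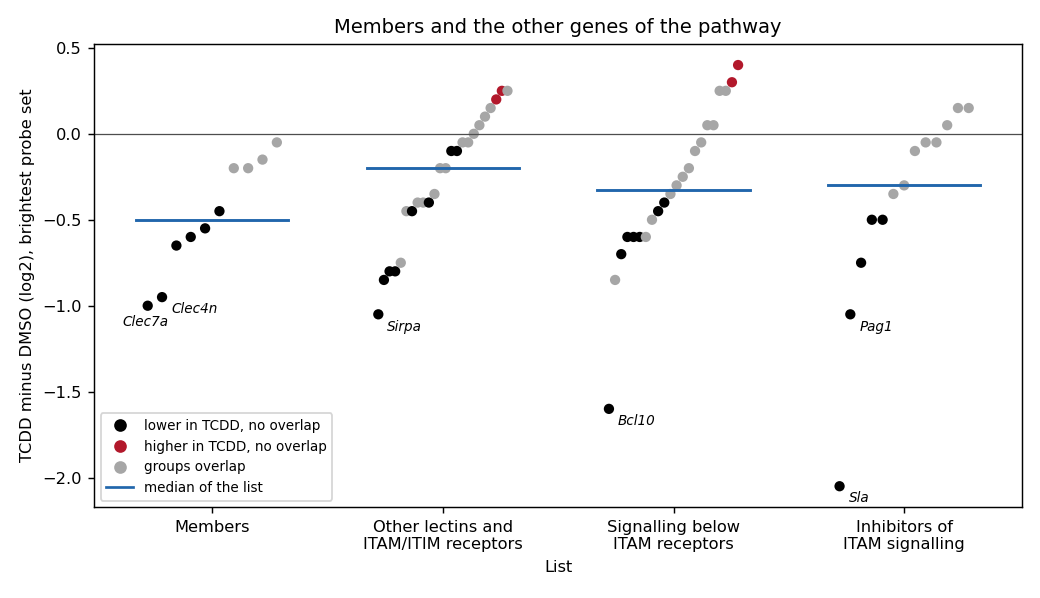
Difference TCDD minus DMSO (log2, vertical axis) of the brightest probe set of each gene in the members and in 3 pathway lists, ordered by size within a list; black points are lower and red points higher in TCDD without overlap, grey points overlap and the blue bar is the median. The medians are -0.50 for the members and -0.20, -0.33 and -0.30 for the lists, and Sla and Bcl10 lie lowest.

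The genes with the profile most like an adaptor's were sought by the Euclidean distance over the 4 arrays after subtracting each probe set's own mean. For Tyrobp the nearest of 8752 genes were Tbcel, the lectin gene Cd207 and Mrps28, each at a distance of 0.00 in the rounded values. For Fcer1g they were Cdk2 at 0.00 and Cct7 and Hspd1 at 0.09, and for Syk Ap3s1, Tmem126a and Gnpda1 at 0.09. At or within the third distance lay 9 genes for Fcer1g, 3 for Tyrobp and 11 for Syk.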

How the data were processed

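The deposited log2 values were made by the authors with RMA, as the submitters' processing notes say. RMA subtracts background, normalizes the arrays processed together and gives 1 value per probe set. The 4 deposited arrays did not share a distribution. Their median difference at levels from 8 to 9 was -0.35 as deposited and -0.0125 after quantile normalization. The labels name neither the software version of RMA nor the arrays processed together. Every value was rounded to 1 decimal. Of 22690 probe sets 64 Affymetrix controls were left out. Genes came from the platform annotation: 20380 of 22626 probe sets had 1 symbol, 691 several and 1555 none. Arrays give no counts, and precision is limited by their number.

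The difference TCDD minus DMSO was fitted by lmFit and eBayes of limma 3.58.1 under R 4.3.3, two-sided, with Benjamini-Hochberg adjustment over 22626 probe sets and a call at an adjusted p under 0.05. SE is limma's moderated SE. The fit was tried on simulated data, where recovery of changes was required only at a small constant spread without rounding. That does not measure the power in these data. An exact permutation test of 2 against 2 arrays reaches p = 0.33 at best, so none was run. The probe set with the highest mean stood for a gene in counts. Every member was named, and up to 4 genes per pathway list and direction by size among those without overlap (5 in the signalling list, where 3 tied), with Clec4e, Card9, Plcg2, Inpp5d and Ptpn6 besides; Ptpn11 tied with Inpp5d, and Card9 was not analysed here. The members, lists and tests were chosen with earlier results of these data known. Alternatives were quantile normalization, median centring, cyclic loess, a replicate block, a trended robust prior, a filter on dim probe sets, other probe set rules, an adjusted p under 0.10 and leaving out each array. Marker lists covered DC, cDC1, cDC2, plasmacytoid DC, neutrophils, macrophages and monocytes, B, T, NK and erythroid cells.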

Additional observations from a re-analysis of the deposited data

How the results depend on the processing

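Limma called 0 probe sets on the deposited values, where 2958 had an unadjusted p under 0.05. It also called 0 under each alternative in which all probe sets were refitted, with a smallest adjusted p from 0.114 to 0.604; the rule of the median over a gene's probe sets was applied to counts of genes only. The median difference of the members was -0.19 under quantile normalization and -0.20 under cyclic loess, with a range of -0.60 to -0.40 over the fits that leave out 1 array. Members higher without overlap numbered 0 to 1 with 1 array left out (Clec4d without TCDD replicate 2, Fcgr1 without DMSO replicate 1). Pathway genes lower without overlap numbered 20, against 12 under quantile normalization and 27 to 35 with 1 array left out, the most without TCDD replicate 1; those higher numbered 4, against 7 under quantile normalization, 1 under median centring and 8 to 11 with 1 array left out, when a lone array separates more readily.

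Of 162 member differences recomputed under 9 alternatives 16 changed sign, none of them in a probe set that was lower without overlap; the cause was not tested. Under quantile normalization Clec4a2 1422013_at stood at 0.15, 1425407_s_at at 0.31, Syk 1418261_at at 0.15 and 1418262_at at 0.13; under cyclic loess these were 0.10, 0.26, 0.10 and 0.067. With 1 array left out Clec4d ranged from -0.85 to 0.55, with 0.30 without DMSO replicate 1 and the highest value without TCDD replicate 2. Clec4a2 1422013_at ranged from -0.45 to 0.05 (highest without TCDD replicate 2) and 1425407_s_at from -0.20 to 0.10 (highest without DMSO replicate 2). Fcgr1 ranged from -0.25 to 0.15 (highest without DMSO replicate 1). Syk 1418262_at ranged from -0.20 to 0.10, being above 0 without TCDD replicate 2 and, at 0.05, without DMSO replicate 1. Syk 1425797_a_at ranged from -0.05 (without DMSO replicate 1) to 0.15.

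The labels do not say that the replicate numbers pair the arrays. Replicate 1 minus 2 correlated at -0.19 between the groups. With the replicate block limma again called 0 (smallest adjusted p = 0.421), and the median difference of the members was -0.50.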

Other observations

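None of the marker genes of lymphoid cells, erythroid cells and DC subsets passed the test (limma, adjusted over all probe sets). Without overlap, 19.4% of all genes were lower and 20.0% higher in TCDD. The B cell list had a median difference of 0.00, with 2 of 7 markers, Cd79b and Ms4a1, lower and 2, Cd79a and Fcer2a, higher without overlap. Ms4a1 lay at 7.5 and 6.7 in TCDD and at 7.6 and 7.8 in DMSO, and Cd79a at 6.0 and 5.8 in TCDD and at 5.4 and 5.5 in DMSO. The T cell list had a median of 0.10, with 3 of 5 markers dim, and the NK cell list one of -0.10 (-0.18 after cyclic loess), with 4 of 5 differences below 0 and 2 of 5 markers dim. Of 4 erythroid markers 3 were higher without overlap, with a median of 0.38 and a smallest adjusted p of 0.409. Hba-a1 had a mean level of 5.525, at the dim level, and Epb42 one of 5.65, with -0.05 on its other probe set. The median difference of all genes at levels from 5 to 6 was 0.10. The plasmacytoid DC list had a median of 0.00 over 5 markers, with Ccr9 at 8.5 and 6.0 in TCDD and at 6.6 and 6.3 in DMSO. The general DC list had a median of -0.50 over 10 markers, with 4 lower without overlap, and the cDC1 list -0.58 over 8, with 4 lower.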
